A study of Mus musculus with 12 samples.

Results

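The 9 genes described here were grouped around steps that make, move or admit lactate and pyruvate. Among them are the lactate dehydrogenases Ldha and Ldhd, and the SLC16 transporters Slc16a1, Slc16a3, Slc16a7 and Slc16a10. The rest are the transporter chaperone Bsg and the 2 subunits of the mitochondrial pyruvate carrier, Mpc1 and Mpc2. Slc16a10 belongs by family only, as it encodes a carrier of aromatic amino acids. The 9 were chosen by symbol, for function or family and with earlier results of these data known, from 24421 counted gene symbols. All 9 were found and all 9 passed the filter on low counts, which 13102 genes passed. RNA was sequenced in 12 libraries of Min6, an insulin-secreting mouse insulinoma line described in the labels as wild type. The control group of 6 libraries carried an adenovirus with a control hairpin (sh-ctrl), and the other 6 carried one with a hairpin against Il22ra1 (sh-Il22ra1), the gene of the interleukin-22 receptor alpha chain. Infection lasted 48 h in every sample, and every sample also received 0.3 mM of an agent the labels abbreviate as PA for 24 h, so no group here lacks the virus or PA. Nothing in the labels tells whether samples came from separate cultures. The p-values therefore measure the spread between these samples only, which may be technical.

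Glycolysis ends in pyruvate, which either enters mitochondria through the carrier formed by MPC1 and MPC2 or is reduced to lactate by lactate dehydrogenase. The enzyme is a tetramer of LDHA and LDHB chains, of which LDHA-rich forms favour lactate production. Lactate and pyruvate cross the plasma membrane on monocarboxylate transporters: SLC16A1 is MCT1, SLC16A7 is MCT2 and SLC16A3 is MCT4. MCT1 and MCT4 need basigin, the product of Bsg, to reach the cell surface, and MCT2 uses the related protein embigin. Healthy beta cells keep Ldha and Slc16a1 very low, and the pair are the best known of the "disallowed" beta-cell genes. This repression directs glucose carbon to mitochondria and keeps circulating pyruvate from triggering insulin release.

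RefSeq's promoter windows on GRCm38 held 7 of the 9 genes, and Bsg and Slc16a7 had no entry. The 250 bases before the annotated start are printed for Ldha, Slc16a1 and Slc16a3, which were all lower in sh-Il22ra1, and for Mpc2, which was higher. The window of Slc16a10, which was lower too, is not printed and held neither of the motifs marked here. The capitals mark ACGTG, the core of the hypoxia response element, on either strand, and CACGTG, the E-box bound by MYC and related factors, which contains ACGTG on both strands. The windows lie at chr7:46845554-46845803, chr3:104638414-104638663, chr11:120948817-120949066 and chr1:165461010-165461259, all on the plus strand, and are written 5′ to 3′.
Ldha: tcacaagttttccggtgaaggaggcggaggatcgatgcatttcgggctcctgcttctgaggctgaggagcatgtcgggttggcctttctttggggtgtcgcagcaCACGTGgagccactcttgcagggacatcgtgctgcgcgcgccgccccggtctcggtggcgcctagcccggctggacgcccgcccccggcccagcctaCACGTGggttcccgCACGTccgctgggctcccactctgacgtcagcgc
Slc16a1: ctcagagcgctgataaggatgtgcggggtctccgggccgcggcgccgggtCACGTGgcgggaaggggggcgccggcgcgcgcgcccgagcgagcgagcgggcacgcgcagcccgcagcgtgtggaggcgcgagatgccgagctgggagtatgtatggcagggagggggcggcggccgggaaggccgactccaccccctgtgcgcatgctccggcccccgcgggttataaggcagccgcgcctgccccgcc
Slc16a3: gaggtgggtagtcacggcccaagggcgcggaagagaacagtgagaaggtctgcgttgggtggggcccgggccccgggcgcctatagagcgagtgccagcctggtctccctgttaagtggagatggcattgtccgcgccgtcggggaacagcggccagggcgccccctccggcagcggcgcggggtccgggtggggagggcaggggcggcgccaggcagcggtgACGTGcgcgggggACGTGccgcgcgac
Mpc2: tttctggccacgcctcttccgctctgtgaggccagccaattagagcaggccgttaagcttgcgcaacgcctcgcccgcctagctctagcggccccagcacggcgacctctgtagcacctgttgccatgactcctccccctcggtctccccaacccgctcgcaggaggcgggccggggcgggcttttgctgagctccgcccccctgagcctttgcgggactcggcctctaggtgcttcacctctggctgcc

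The Ldha window held the E-box at 145 and 48 bases before the start, plus a separate ACGTG match at 34 bases. A second RefSeq start of Ldha, downstream, had neither motif in its window. Slc16a1 had 1 E-box, 200 bases before the start, and Slc16a3 had no E-box but ACGTG at 27 and 14 bases. Ldhd, which did not pass the test of expression, had 1 E-box too, at 139 bases. Neither motif was in the windows of Mpc2, which rose, Mpc1, which did not pass, or Slc16a10, which fell as Ldha did. Nptn, a relative of Bsg that rose, had the E-box at 2 places as Ldha did, 137 and 114 bases before the start. Ldhb, which rose, and Emb, the gene of embigin, which did not pass, had neither motif. Whether matches go with the direction of change was not tested. Of all 32851 windows of this length, 16.6% held ACGTG and 6.02% held CACGTG, while 0.43% held CACGTG at 2 or more places. These shares were not matched for GC content, which was 67.2% for the printed windows of Ldha and Mpc2, 76.4% for Slc16a1 and 73.6% for Slc16a3. How common the motifs are in windows of such GC content was not tested. These matches describe letters in a window and were not linked to binding.

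Reads assigned to genes ranged from 13108494 to 15887448 per library. Levels are in CPM, gene reads scaled to a common library total with TMM factors. Il22ra1, the targeted gene, had 7 to 20 reads in each sh-ctrl library and 1 to 4 in each sh-Il22ra1 library (0.831 CPM ± 0.256 against 0.164 CPM ± 0.0873, SD, n = 6 each; two-sided exact permutation p = 0.00216, the smallest this design can give). In the treatment field, the digit ending the gene name climbs across sh-Il22ra1 replicates 2 to 6; grouping followed the titles instead. The summed level of 12 beta-cell markers was 73750 to 110700 CPM in sh-ctrl and 66780 to 76290 CPM in sh-Il22ra1. Most of it was Ins2 (mean 49590 CPM in sh-ctrl, 42880 in sh-Il22ra1) and Iapp (30590 and 19760), so it says little of the rest. Those moved in both directions, such as Mafa (555.9 and 227.3 CPM) and Pcsk2 (1761 and 2158 CPM). Summed acinar, fibroblast, leukocyte and endothelial markers stayed below 8 CPM in every library, and the acinar genes Ptf1a and Prss2 had no read. Summed islet hormones other than insulin, mostly glucagon, were at 243 to 294.5 CPM in sh-ctrl and at 145.5 to 158 CPM in sh-Il22ra1. Fibroblast markers moved with the group too, from 3.03 to 6.34 CPM in sh-ctrl to 1.04 to 1.80 CPM in sh-Il22ra1. Reads without an alignment also moved with it, from 12.8% to 17.3% of sh-ctrl files to 8.71% to 11.8% of sh-Il22ra1 files. The part of any of these in the results for the 9 genes was not tested. Sh-ctrl replicates 1 and 4 stood apart from the other controls on the second principal component, with scores of 18.2 and 31.9 against -17.7 to -0.13. In bulk RNA, fewer cells expressing a gene and less of its RNA per cell cannot be told apart.

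Of the 9 genes, 5 fell, 2 rose and 2 missed the threshold of 0.05 on the adjusted p of edgeR's quasi-likelihood fit. The background is high: 51.9% of all tested genes were called, 26.5% lower and 25.4% higher. In 3 of the 9 the CPM ranges of the groups did not overlap, against 28.1% of all tested genes, which is close to the background. The median log2 fold change (sh-Il22ra1 over sh-ctrl) of the 9 was -0.54, and that of all tested genes was -0.0043. All 4 SLC16 genes and Ldha were called lower, and Bsg and Mpc2 were called higher. The Bsg call ended in 8 of 12 fits that left out 1 library. Mpc1, the other carrier subunit, and Ldhd were the 2 that did not pass.

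**Figure D1:**
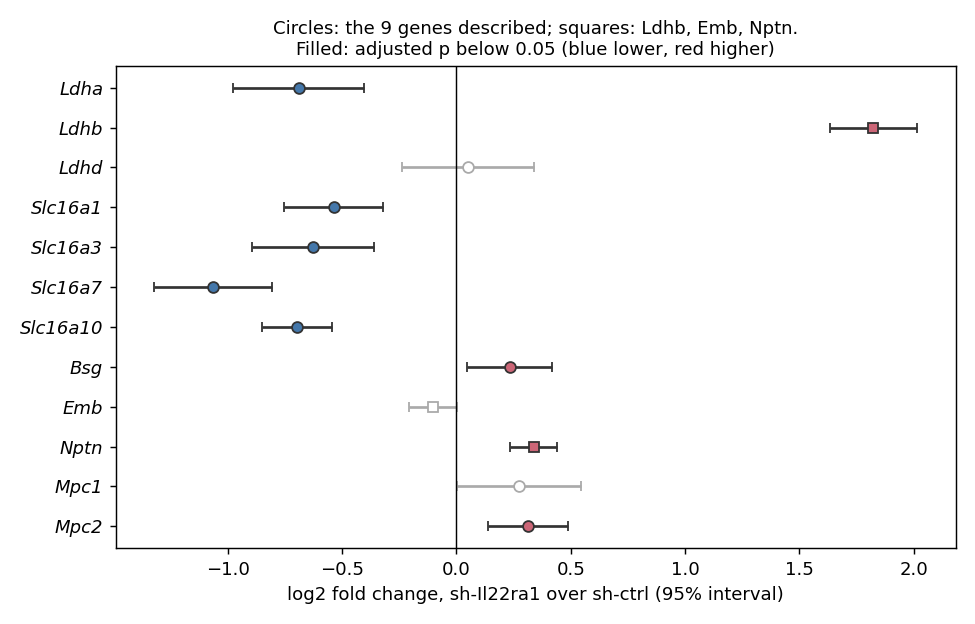
Log2 fold change of sh-Il22ra1 over sh-ctrl with its 95% interval for the 9 genes (circles) and for Ldhb, Emb and Nptn (squares); filled symbols passed edgeR's adjusted p of 0.05. Ldha and the 4 SLC16 genes lie between -1.06 and -0.54, while Ldhb lies at 1.82.

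Ldha, which encodes the muscle-type chain of lactate dehydrogenase, fell to 62.0% of its control level. Its GRCm38 position is chromosome 7, 46841475 to 46855627, plus strand. Its CPM was 287 at the lowest, 372 at the median and 535 at the highest in sh-ctrl, and 193, 232 and 311 in sh-Il22ra1. The 2 ranges touched: 5 of 6 sh-Il22ra1 libraries lay below every control, and replicate 4 (311 CPM) lay above control replicate 6 (287 CPM). Means were 392 CPM ± 90.7 and 243 CPM ± 46.2 (SD, n = 6 each), with a log2 fold change of -0.69, an SE of 0.136 and an edgeR adjusted p of 0.00035. The spread among controls was wide, 23.1% of the mean, with the top values in replicates 1 (459 CPM) and 4 (535 CPM). Without those 2 libraries the log2 fold change was -0.50 and still passed (edgeR adjusted p = 4.27e-05). Of the 50-base stretches of its reference transcript, 17.1% also occur in other annotated transcripts, mainly processed pseudogenes, so part of its reads could have been lost or shared in counting.

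Ldhb, the heart-type chain that shares the tetramer with LDHA, moved the opposite way. Its CPM was 17.2, 18.8 and 23.5 (lowest, median, highest) in sh-ctrl and 60.4, 70.1 and 81.0 in sh-Il22ra1, with no overlap and a log2 fold change of 1.82 (SE 0.0915; edgeR adjusted p = 2.39e-11). Per kilobase of transcript, Ldha RNA was 14.3 times Ldhb RNA in sh-ctrl (geometric mean; 10.3 to 17.4 over libraries) and 2.51 times in sh-Il22ra1 (1.76 to 3.08). The log2 ratio of Ldha to Ldhb was thus lower by 2.51 units, a 5.69-fold shift in balance, with two-sided exact permutation p = 0.00216 (0.00325 adjusted over 3 ratios by Benjamini-Hochberg). It was lower in 6 of 6 sh-Il22ra1 libraries than in any control. Ldha made up 91.2% to 94.6% of the 2 chains' RNA in sh-ctrl and 63.8% to 75.5% in sh-Il22ra1. The sum of the 2, in RPKM (CPM per kilobase of reference transcript), was 238 ± 52.4 and 192 ± 27.1 (SD, n = 6 each), with overlapping ranges of 176 to 321 and 162 to 234. Ldha therefore remained the more abundant transcript in every library. Of the Ldhb transcript, 27.0% of 50-base stretches also occur in an annotated pseudogene.

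Ldhd encodes the mitochondrial dehydrogenase for D-lactate and did not pass. Its CPM ran from 6.14 to 9.49 with a median of 8.01 in sh-ctrl, and from 6.11 to 10.4 with a median of 8.36 in sh-Il22ra1. The groups overlapped almost completely, and the log2 fold change of 0.05 had a 95% interval of -0.24 to 0.34 (edgeR adjusted p = 0.780). The gene lies on chromosome 8, minus strand, and 42.2% of its exon bases overlap exons of Znrf1 on the plus strand. As the strand setting of the counting is not given in the sources used here, reads of the pair may not be separable. The remaining lactate dehydrogenase genes of the fixed list, Ldhc and Ldhal6b, had 11 and 6 reads over all sh-ctrl libraries and 1 and 8 over all sh-Il22ra1 libraries, too few for the test.

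**Figure D2:**
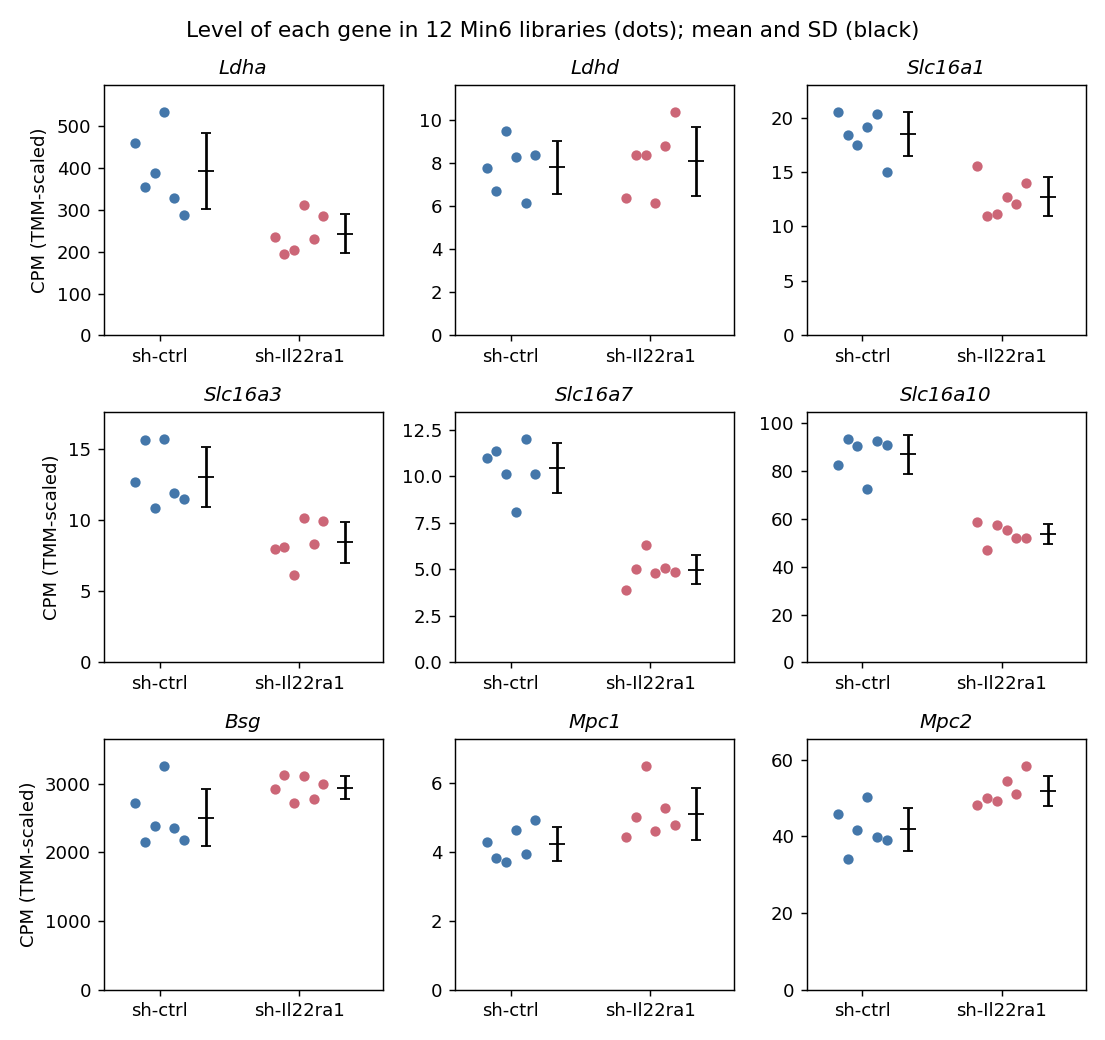
CPM of each of the 9 genes in the 6 sh-ctrl (blue) and 6 sh-Il22ra1 (red) libraries, one dot per library in replicate order, with mean and SD in black and every axis starting at 0. Slc16a3, Slc16a7 and Slc16a10 show groups that do not overlap, and control replicate 4, the fourth blue dot, is the highest control for Ldha, Bsg and Mpc2 and the lowest for Slc16a7 and Slc16a10.

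Slc16a1, the gene of MCT1 on chromosome 3 (104638668 to 104658462, plus strand), fell to 68.9% of control. In sh-ctrl its CPM was 15.0 at the lowest, 18.8 at the median and 20.5 at the highest, and in sh-Il22ra1 it was 10.9, 12.4 and 15.6. As with Ldha, 5 of 6 sh-Il22ra1 libraries were below every control, with replicate 1 just above control replicate 6. The log2 fold change was -0.54 (SE 0.103; edgeR adjusted p = 0.000265). Its level in the controls was 4.18 RPKM ± 0.463 (SD, n = 6), the 34.1st percentile of tested genes, against the 97.5th percentile for Ldha. The 2 classical disallowed genes thus stood far apart in level in this line.

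Slc16a3, the gene of MCT4, a transporter suited to lactate export, lies on chromosome 11 (120948480 to 120960868, plus strand). It went from 10.9, 12.3 and 15.7 CPM (lowest, median, highest) to 6.18, 8.24 and 10.2 CPM. The groups did not overlap, and the log2 fold change was -0.63 (SE 0.128; edgeR adjusted p = 0.000486). Slc16a7, the gene of the high-affinity transporter MCT2 on chromosome 10 (125219270 to 125389465, minus strand), had the largest fold change of the 9 genes, to 47.8% of control. Its CPM fell from 8.10, 10.6 and 12.0 to 3.90, 4.94 and 6.31, again without overlap (log2 fold change -1.06, SE 0.123; edgeR adjusted p = 1.04e-06). These are 106 to 180 reads per control library and 57 to 98 per sh-Il22ra1 library, so counting error is part of the spread. Correction for transcript length and GC content brought the change of this long transcript (10981 bases) to -0.84 and left it past the test.

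Slc16a10 encodes TAT1, which carries aromatic amino acids and is not a lactate transporter despite its family. It lies on chromosome 10 (40033532 to 40142258, minus strand) and was the most abundant of the 4 SLC16 genes, at 16.1 RPKM ± 1.52 in sh-ctrl and 9.96 RPKM ± 0.797 in sh-Il22ra1 (SD, n = 6 each). Its CPM was 72.5, 90.8 and 93.5 (lowest, median, highest) in the controls and 47.0, 53.8 and 58.6 in sh-Il22ra1. No libraries overlapped, and the log2 fold change was -0.70 with the smallest SE of the 9 (0.0730; edgeR adjusted p = 3.08e-07). Control replicate 4 was lowest (72.5 CPM), the reverse of its position for Ldha.

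Among Slc16a1, Slc16a3 and Slc16a7, the lactate and pyruvate transporter genes of the 9, each gene's share of the RNA per kilobase overlapped between groups. Slc16a8, which is not among the 9 and rose, was left out of these shares and of the sum below. Slc16a1 supplied 51.3% ± 3.08 in sh-ctrl and 54.4% ± 3.86 in sh-Il22ra1, Slc16a3 36.9% ± 3.87 and 36.8% ± 3.96, and Slc16a7 11.8% ± 1.73 and 8.80% ± 2.25 (SD, n = 6 each). Their sum was 8.15 RPKM ± 0.767 in sh-ctrl and 5.28 RPKM ± 0.557 in sh-Il22ra1, or 64.9% of control, with ranges of 6.97 to 8.80 and 4.52 to 5.90. Of the other 10 SLC16 genes in the fixed list, 8 were tested, of which 2 fell, 1 rose and 5 did not pass, with a median log2 fold change of -0.13; these counts are no higher than the background of 26.5% lower and 25.4% higher. Slc16a9 (-0.77, SE 0.130) and Slc16a13 (-0.48, SE 0.146) fell, and Slc16a8, which encodes MCT3, rose (0.96, SE 0.212) from 1.42 to 2.75 CPM. Without sh-ctrl replicates 1 and 4, 4 of these genes were called lower.

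Bsg, the chaperone gene on chromosome 10 (79704491 to 79711969, plus strand), was the most abundant of the 9 by a wide margin and was called slightly higher. It held 33167 to 47904 reads per library and ranked at the 99.9th percentile of tested genes in both groups. Its CPM was 2150, 2364 and 3255 (lowest, median, highest) in sh-ctrl and 2718, 2961 and 3121 in sh-Il22ra1. Of the 6 controls, 5 lay below every sh-Il22ra1 library, and replicate 4 lay above them all. The log2 fold change was 0.23 (SE 0.0886; edgeR adjusted p = 0.0344). This call ended in 8 of 12 fits that left out 1 library, whichever of sh-ctrl replicates 2, 3, 5 and 6 or sh-Il22ra1 replicates 1, 2, 4 and 6 it was, with edgeR adjusted p up to 0.0775. It held without control replicate 4 (0.31, edgeR adjusted p = 0.000357), and without control replicates 1 and 4 together the change was 0.36, over 1.5 times as large (edgeR adjusted p = 3.17e-06).

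The balance between chaperone and transporter shifted as well. Per kilobase, Bsg RNA exceeded Slc16a1 RNA by 336 to 492 times in sh-ctrl and by 546 to 829.2 times in sh-Il22ra1. The log2 ratio of Slc16a1 to Bsg was lower by 0.79 units on average, with no overlap between groups and a two-sided exact permutation p of 0.00216 (0.00325 adjusted over 3 ratios by Benjamini-Hochberg). Related chaperone genes did not share one direction. Emb, the gene of embigin, averaged 251 CPM ± 7.98 in sh-ctrl and 233 CPM ± 8.46 in sh-Il22ra1 (SD, n = 6 each) and did not pass (log2 fold change -0.10, 95% interval -0.21 to 0.001; edgeR adjusted p = 0.0897), but it passed downward with DESeq2 (adjusted p = 0.0283), after the length and GC correction (edgeR adjusted p = 0.00204) and without control replicates 1 and 4 (edgeR adjusted p = 0.0459). Nptn, the gene of neuroplastin, another relative of basigin, rose from 162 CPM ± 4.07 to 205 CPM ± 8.21 without overlap (0.34, SE 0.0492; edgeR adjusted p = 1.60e-05).

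Mpc2, a subunit of the mitochondrial pyruvate carrier on chromosome 1 (165460637 to 165481214, plus strand), rose to 124% of control. Its CPM was 34.04, 40.8 and 50.3 (lowest, median, highest) in sh-ctrl and 48.1, 50.5 and 58.3 in sh-Il22ra1. Control replicate 4 (50.3 CPM) was the one control inside the range of the other group. The log2 fold change was 0.31 (SE 0.0834; edgeR adjusted p = 0.00417); it was 0.17 after the length and GC correction (edgeR adjusted p = 0.0106), nearer to 0 by over 1.5 times. Mpc1, the partner subunit on chromosome 17 (8282904 to 8297661, plus strand), ran from 3.70 to 4.95 CPM with a median of 4.12 in sh-ctrl and from 4.45 to 6.51 with a median of 4.91 in sh-Il22ra1. It did not pass: the log2 fold change was 0.27 with a 95% interval of 0.0035 to 0.55, from 55 to 101 reads per library (unadjusted p = 0.0473 and adjusted p = 0.0829 in edgeR), and 0.08 after the length and GC correction.

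The 2 carrier subunits are needed in one complex, and the ratio of their RNA levels overlapped between groups. Per kilobase Mpc2 RNA exceeded Mpc1 RNA by 7.38 to 10.5 times in sh-ctrl and by 7.06 to 11.4 times in sh-Il22ra1. The size of this ratio rests on 1 reference transcript per gene. With the length of all annotated exons, mean sh-ctrl levels were 5.69 RPKM for Mpc2 and 2.03 RPKM for Mpc1. The log2 ratio of Mpc1 to Mpc2 differed by -0.05 between groups, less than the SDs of 0.195 and 0.249 within them (two-sided exact permutation p = 0.695). The level of Mpc1 itself is uncertain. Of its reference transcript, 44.2% of 50-base stretches recur in annotated pseudogenes or an overlapping antisense transcript, and 23.1% of its exon bases overlap 4930506C21Rik on the opposite strand.

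**Figure D3:**
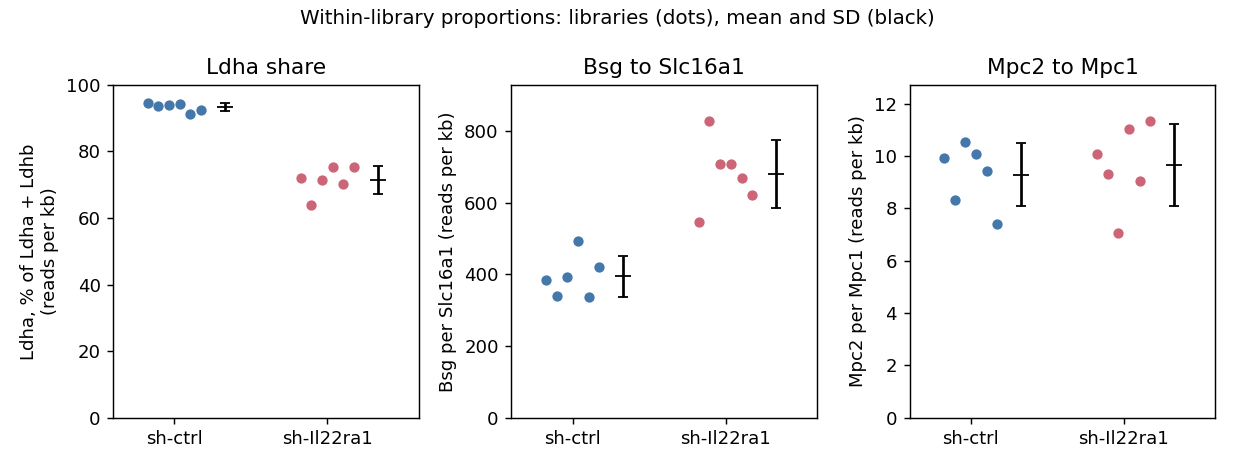
Within-library proportions in 6 sh-ctrl (blue) and 6 sh-Il22ra1 (red) libraries, with mean and SD in black: the Ldha share of Ldha plus Ldhb RNA in percent, Bsg per Slc16a1 and Mpc2 per Mpc1, all from reads per kilobase. The first 2 panels show groups that do not overlap (lowest control Ldha share 91.2%, highest sh-Il22ra1 share 75.5%), and the third shows groups that do.

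By RNA per kilobase the controls ordered the genes as Bsg (1641 RPKM), Ldha (222), Mpc2 (40.8), Slc16a10 (16.1), Mpc1 (4.42), Slc16a1 (4.18), Ldhd (3.42), Slc16a3 (3.02) and Slc16a7 (0.953). Neighbours from Mpc1 to Slc16a3 had overlapping ranges, so their order is not fixed by these data; the steps from Bsg to Ldha, Mpc2 and Slc16a10 and from Slc16a3 to Slc16a7 were clear of overlap. In sh-Il22ra1 the same genes gave 1929, 138, 50.6, 9.96, 5.34, 2.88, 3.55, 1.95 and 0.455 RPKM, and Ldhd and Slc16a1 changed places with overlapping ranges. Ldhb moved from the 62.9th to the 86.5th percentile of tested genes, level with Mpc2 at the 85.6th. These levels rest on 1 reference transcript per gene, and Mpc2 would be at 5.69 RPKM in the controls if the length of all its annotated exons were used, below Slc16a10 at 11.9 RPKM.

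**Figure D4:**
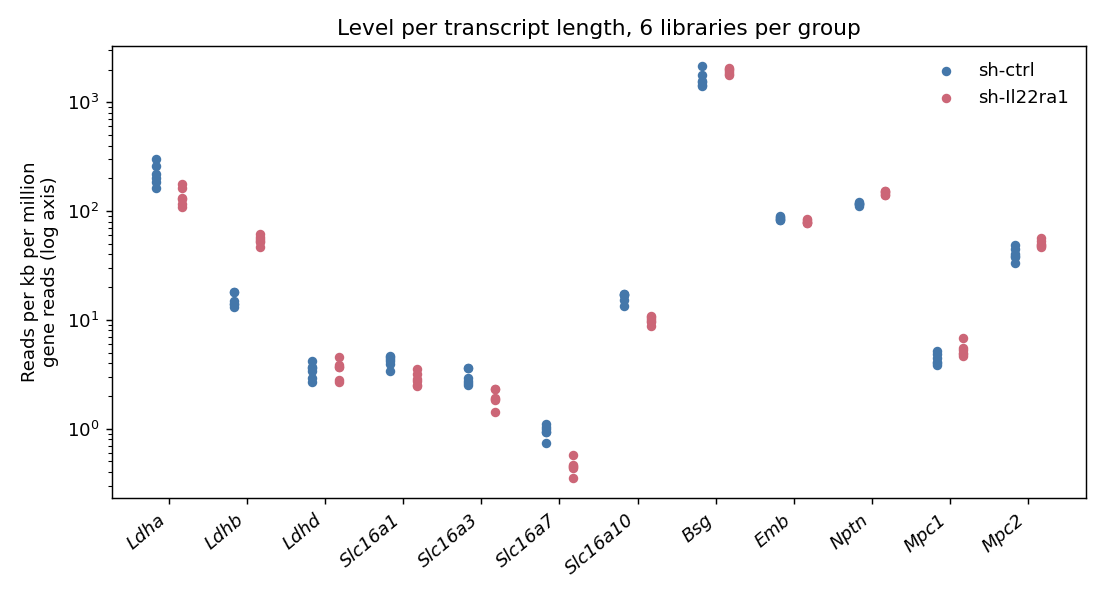
CPM per kilobase of reference transcript (RPKM), on a log axis, for each library of sh-ctrl (blue) and sh-Il22ra1 (red). Bsg lies at or above 1409 RPKM in every library, and Slc16a7 at or below 1.10 RPKM in every library; Ldhb rises from near Slc16a10 to near Mpc2.

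The profiles most like those of Ldha, Slc16a1 and Bsg were found by the root mean square difference of log2 CPM over the 12 libraries, each gene set relative to its control mean. Among the nearest to Ldha were Slc2a1, the gene of the glucose transporter GLUT1 (0.114 log2 units), and Cited4 (0.16). Their log2 fold changes were -0.58 and -0.73. Slc16a1 was followed most closely by Fbxo5 (0.102), Nudt4 (0.111) and Smarce1 (0.118), and Bsg by Polr2e (0.0426), Rpl28 (0.047) and Tceb2 (0.0474), the last 3 with fold changes of 0.23 to 0.25 on the log2 scale. Each neighbour was picked for likeness to its gene, so similar fold changes and similar losses of a call come from the choice. The calls of Polr2e, Rpl28 and Tceb2 ended when certain single libraries were left out (edgeR adjusted p up to 0.0712, 0.0698 and 0.0890). The length and GC correction also ended the Rpl28 call (0.09, edgeR adjusted p = 0.103) and brought Tceb2 to 0.15, and a filter at a mean of 1 CPM ended the Tceb2 call (edgeR adjusted p = 0.0503).

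Genes that supply or use pyruvate changed in both directions. Of 20 listed, 19 were tested: 8 rose, 4 fell and 7 did not pass, at a median log2 fold change of 0.16, beside a background of 25.4% higher and 26.5% lower. Gpt2, a mitochondrial alanine aminotransferase, rose from 164 to 313 CPM (0.93, SE 0.0675). Within the pyruvate dehydrogenase complex, Pdhb (0.67, SE 0.0563) and Pdhx (0.80, SE 0.0791) rose. Its other listed subunits, named after their values were seen, were Dlat (0.27) and Dld (0.24), which rose, and Pdha1, the partner of Pdhb, which did not pass (-0.04, edgeR adjusted p = 0.648). Pdk2, one of the kinases that switch the complex off, fell (-0.81, SE 0.0975). Its other listed regulators, also named after their values were seen, did not share one direction of action. The kinase gene Pdk1 fell (-0.85, SE 0.115), and Pdk3, the most abundant kinase gene by CPM, did not pass (0.02, edgeR adjusted p = 0.825). Pdp1, which encodes an activating phosphatase, fell (-0.65, SE 0.141). Pdp2 (-0.17, edgeR adjusted p = 0.3285) and Pdpr (-0.06, edgeR adjusted p = 0.8485) did not pass, and Pdk4 had no read. Pkm, the pyruvate kinase gene with 2647 CPM in sh-ctrl and 2355 CPM in sh-Il22ra1, was also picked after its values were seen and did not pass (-0.17, edgeR adjusted p = 0.0648).

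Among other genes described as repressed in mature beta cells, calls were near the background share in all and more often lower than higher. The list, drawn up from general knowledge but with earlier results of these data known, held 26 genes besides Ldha and Slc16a1. Of these, 12 had too few reads. Of the 14 tested, 7 fell, 1 rose and 6 did not pass, at a median of -0.33. Over all tested genes 51.9% were called, 26.5% lower and 25.4% higher. Cxcl12, a chemokine gene, fell from 151 to 71.7 CPM (-1.07, SE 0.103), the poly(ADP-ribose) polymerase gene Parp3 fell (-0.94, SE 0.0986), and so did Igfbp4 (-0.65, SE 0.0718) and Myc (-0.60, SE 0.106). The gene that rose was Tst, which encodes the sulfur transferase rhodanese (0.55, SE 0.119), named after its values were seen. Hk1, which encodes a high-affinity hexokinase, was at 100.1 CPM in sh-ctrl and 107 CPM in sh-Il22ra1 and did not pass (0.09, edgeR adjusted p = 0.148; named after its values were seen). After the length and GC correction 3 of the list were called higher and 7 lower.

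Ldha and Slc16a3 are textbook targets of the hypoxia factor HIF-1, and the list of HIF-1, its regulators and other targets had 9 of 21 tested genes lower, 3 higher and 9 not past the threshold, at a median of -0.14. Over all tested genes 26.5% were lower and 25.4% higher, and the 12 called of 21 are close to the 51.9% called overall. Hif1a itself fell from 69.3 to 43.0 CPM (-0.69, SE 0.0811), and its inhibitor gene Hif1an fell from 135 to 84.5 CPM (-0.67, SE 0.0647). Pfkfb3 (-1.25, SE 0.162) and Pfkfb4 (-0.82, SE 0.134), whose enzymes help regulate glycolysis, fell as well. Pgam1, Ndrg1 and Vhl were the 3 that rose, by 0.27, 0.23 and 0.22 on the log2 scale, named after their values were seen. The split depended on the controls that stood apart: without sh-ctrl replicates 1 and 4, 10 were lower and 7 higher. The list holds regulators as well as targets, and whether its members share a response was not tested.

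**Figure D5:**
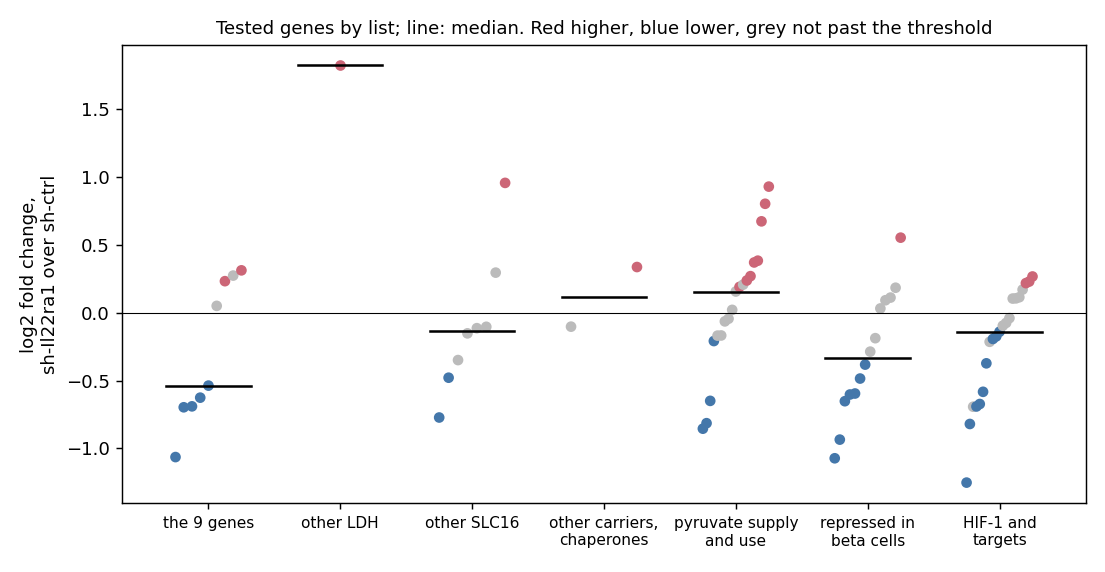
Log2 fold change of sh-Il22ra1 over sh-ctrl for every tested gene of the 9 described and of each list, sorted within the list, with the median as a line; red passed higher, blue passed lower, grey did not pass. Medians are -0.54 for the 9 genes, 0.16 for pyruvate supply and use, -0.33 for genes repressed in beta cells and -0.14 for HIF-1 and its targets.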

How the data were processed

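Total RNA of 12 Min6 samples was sequenced as paired ends, 6 per group by their titles. Per the submitters' processing notes, HISAT2 2.0.5, HTSeq and mm10 were used. Gene models and strandedness of counting: not given in the sources used here. The deposited count files hold whole-number counts for 24421 gene symbols and 5 rows of unassigned reads (23.5% to 31.7% of each file), which were left out. Counts were tested in edgeR 4.0.16 (R 4.3.3): filterByExpr (minimum count 10, total 15), TMM scaling, quasi-likelihood test, Benjamini-Hochberg adjustment over 13102 genes at 0.05. SE is the log2 fold change divided by the square root of F. The 3 gene ratios and Il22ra1 were compared by two-sided exact permutation of group labels (scipy 1.17.1). No member failed the filter, so the test fixed for such genes was not used. Lengths, positions and overlaps came from GENCODE M21 (GRCm38), using the APPRIS principal transcript; 23376 symbols matched by symbol, 668 by synonym and 377 not at all.

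The members and lists were chosen with earlier results of these data known. Named genes are the 9, Il22ra1, Ldhb, Emb, Nptn, up to 4 called genes per list with the smallest p, and the 3 nearest profiles (mean of at least 5 CPM) of Ldha, Slc16a1 and Bsg. One gene that this rule names is not reported here. Alternatives changed the scaling (RLE, upper quartile), the tool (DESeq2 1.42.0, or voom in limma 3.58.1), the filter (none, or a 1 CPM mean), the libraries (each left out, and sh-ctrl 1 with 4), added a replicate block, or added length and GC offsets by spline with 4 degrees of freedom. The deposited CPM table of the series was not used. The fit was tested on simulated data. Every pair of libraries within a group differed by more than sampling noise (chi-square at least 3.96 per degree of freedom).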

Additional observations from a re-analysis of the deposited data

How the results depend on the processing

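The falls of Ldha, Slc16a1, Slc16a3, Slc16a7 and Slc16a10 passed under all 21 alternatives run for each, and Mpc2 passed upward under all 21. The count of these genes called lower was 5 throughout. The count called higher was 1 or 2 over fits without 1 library, as the Bsg call ended in 8 of those 12 fits, where its log2 fold change ranged from 0.19 to 0.31. Ldhd, which did not pass, ran from -0.05 to 0.12 over the same fits, turning negative without sh-ctrl replicate 5 (-0.0093) or sh-Il22ra1 replicate 6 (-0.0456). The log2 difference of the Mpc1 to Mpc2 ratio ran from -0.14 to 0.01, turning positive without sh-ctrl replicate 6 (0.0145) or sh-Il22ra1 replicate 6 (0.0011); the cause was not tested. Genes called ranged from 2881 to 3781 higher and from 3239 to 4146 lower.

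Replicate numbers are not said to pair samples. Same-numbered libraries deviated together with correlations of -0.03 to 0.23, above 0.1 for 3 of 6 numbers, and 1 of 6 control libraries correlated best with its own number. With the replicate block, log2 fold changes were -0.68 for Ldha, -0.54 for Slc16a1 and 0.25 for Bsg, and no call among the 9 genes changed. In pairs, the Ldha to Ldhb and Slc16a1 to Bsg ratios had an exact sign-flip p adjusted to 0.0469. Before adjustment, both stood at the smallest p that this test can give with 6 pairs. Depth limits Mpc1 (55 to 101 reads per library), Slc16a7 and Ldhd most.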
